A study of Rattus norvegicus with 22 samples.

Results

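The 46 probe sets described here measure 42 genes that carry symbols of cytoplasmic ribosomal proteins. They were chosen by name: a probe set belongs if it has 1 annotated symbol that starts with Rpl (large subunit) or Rps (small subunit) followed by a digit, and symbols that start with Rps6k, which are kinases, stay out. This gave 29 Rpl genes on 32 probe sets and 13 Rps genes on 14, of 10411 genes on 12783 probe sets with 1 symbol. Rpl7l1, a relative of Rpl7 described below, is among the members by its name only. A further 28 probe sets carry several symbols, all of them ribosomal protein symbols of this form, and are counted apart. By the rule 8 Rps6k probe sets were left out.

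RNA came from pregnant Wistar rats and their offspring and was hybridised to 22 arrays, 1 sample each. Dams were dosed with retinoic acid at 12 mg/kg/day, with vehicle (control), or with EMD 82571 at 50 or 150 mg/kg/day (EMD50 and EMD150), a calcium sensitizer that the design text names MSC1096199. The protocol gives dosing from gestational day 6 to day 11 or day 17, and no transgene or mutation is named for any group. Samples were whole embryo at day 12, embryo liver and embryo bone at day 20, and maternal liver at days 12 and 20, which makes 5 strata of tissue and day. Each stratum holds 1 array per treatment, except that both day 12 strata hold a pair of retinoic acid arrays, coded RA5 and RA56 with no explanation of the codes. Whether arrays share dams or litters, and whether RNA was pooled, is not stated, so p-values measure the spread between these arrays.

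Ribosomal proteins assemble with ribosomal RNA in the nucleolus into the small and the large subunit of the ribosome, and are made in near equimolar amounts by every cell that grows. Their mRNAs are short and abundant. In vertebrates most of them begin with a C followed by a run of C and U, the terminal oligopyrimidine (TOP) tract, through which the kinase mTOR, acting on Larp1 and the cap-binding machinery, sets how much of them is translated. Embryonic tissues and fetal liver, which forms blood at this stage, are known for high ribosome production, and inherited loss of single ribosomal protein genes in humans causes Diamond-Blackfan anaemia with malformations.

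The annotated starts of these genes show how far the TOP rule can be read from the reference. RefSeq promoters (assembly GRCr8) were found for 35 of the 42 genes. The windows below run from 10 bases before the annotated start to 20 bases from it, and capitals mark the unbroken run of C and T that begins at the start itself. The first 5 belong to the genes whose RNA was higher in retinoic acid arrays, and the others to genes with the firmest tissue differences or the longest runs.
Rps15a, chr1:181860265-181860294, minus strand: ttttctttccacagtcaccatggtgcgaat
Rpl35a, chr11:81235002-81235031, minus strand: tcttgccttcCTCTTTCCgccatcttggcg
Rpl39, chrX:121195877-121195906, minus strand: taatcgcgttCTTCCggcctgtcctttctc
Rpl23, chr10:83272165-83272194, minus strand: cttcctttctgactctttccggacgctcaa
Rpl26, chr10:54109682-54109711, plus strand: gtcaacttacagaaccggaagtcgcatgta
Rpl11, chr5:153560783-153560812, minus strand: cttgaagcttgtttggtgctggggagcatc
Rps23, chr2:23814507-23814536, plus strand: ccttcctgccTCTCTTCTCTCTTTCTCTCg
Rpl3, chr7:113507971-113508000, minus strand: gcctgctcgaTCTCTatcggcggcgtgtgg
Rpl27a, chr1:172974563-172974592, plus strand: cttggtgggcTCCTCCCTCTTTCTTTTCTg
Rpl14, chr8:129163610-129163639, plus strand: ggccctctccCTTCTCgctgagcgccgcca
Rpl19, chr10:83519054-83519083, plus strand: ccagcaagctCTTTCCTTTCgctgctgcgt

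A C at the start followed by at least 4 further C or T was found in 9 of the 35 promoters (25.7%), against 2.52% of the 21851 promoters of protein-coding genes in the same table. A run of at least 8 C or T within 10 bases of the start was found in 15 (42.9%), against 6.54%. In Rpl23 and Rps15a such a run ends just before the annotated start, and in Rpl26 and Rpl11 none lies near it. The motif CCGGAAG, searched like all motifs here on both strands, from 250 bases before to 50 after the start, occurred in 9 (25.7%), against 10.7%. AAGATGG, which holds an ATG, occurred in 8 (22.9%), against 7.29%. CTTTCC, which overlaps many of the C and T runs, occurred in 15 (42.9%), against 26.3%, and TATAAA in 5 (14.3%), against 13%. CCAAT was the one motif searched with a lower share, 6 (17.1%) against 38.0%. These matches describe letters in a window and not binding sites, and an annotated start can differ from the start used in these tissues.

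The arrays report log2 signal from robust multi-array averaging (RMA), in which 1 unit is a doubling. The ribosomal protein probe sets lay near the top of the arrays' range. Their median ran from 11.87 to 13.46 over the 22 arrays, while the median of all probe sets ran from 8.09 to 8.22. Brightness belongs to a probe set and not to a gene. Both probe sets of Rpl7 make this plain: the mean over all arrays was 12.65 for 1398917_at and 7.97 for 1375788_at. Rpl14 had means of 11.86 for 1387887_at and 7.06 for 1375375_at, Rps24 12.72 for 1369966_a_at and 6.53 for 1390494_at, and Rpl7l1 10.12 for 1389013_at and 9.35 for 1372391_at. Of the 46 probe sets, 8 had a mean under 9. The table has no detection or saturation call, so no level is given as a bound. Many processed copies of ribosomal protein genes lie in mammalian genomes, and RNA of a near-identical copy would be counted with its gene. The tissue labels were checked against marker genes: hepatocyte markers averaged 13.9 to 14.3 in all livers, all 6 measured osteoblast and all 5 measured cartilage markers were called higher in embryo bone than in embryo liver, and all 7 measured neuron markers higher in whole embryo than in maternal liver.

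**Figure D1:**
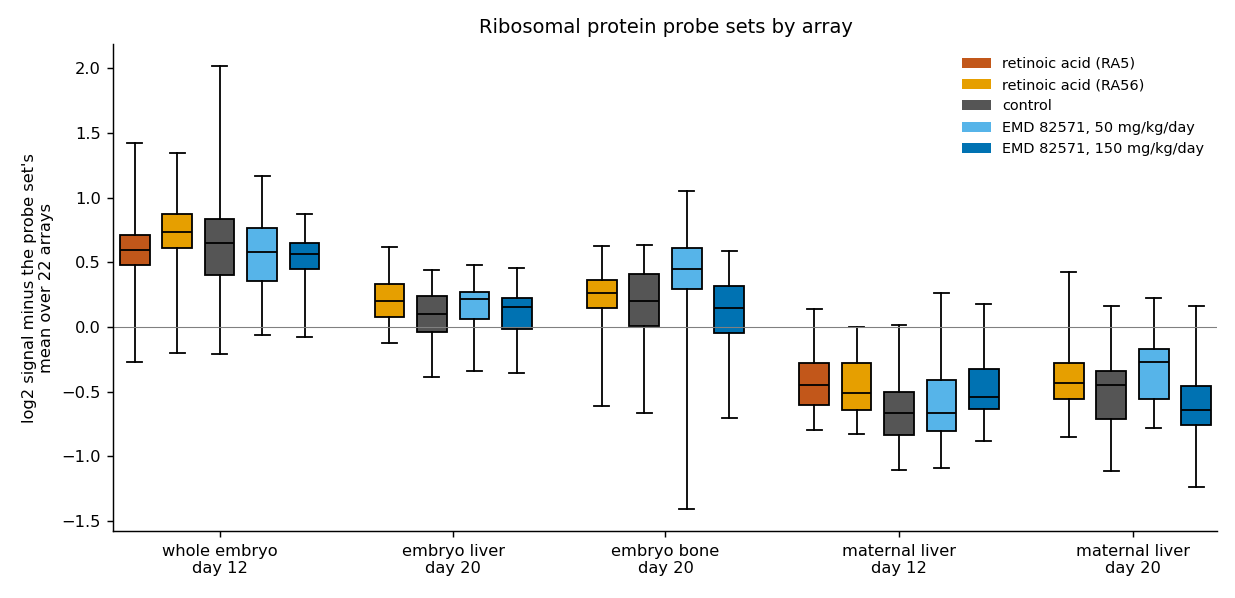
Level of the 46 ribosomal protein probe sets in each of the 22 arrays, as log2 signal minus the same probe set's mean over all arrays; boxes show the quartiles and the median, whiskers the lowest and highest probe set. Whole embryos lie highest, both sets of maternal livers lowest, and the treatments within a tissue overlap.

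Tissue ordered these genes far more than treatment did, as the plot of levels by array shows. The array medians of the 46 probe sets ran from 13.27 to 13.46 in whole embryo, from 12.68 to 13.02 in embryo bone, from 12.74 to 12.92 in embryo liver, from 11.89 to 12.10 in maternal liver of day 12 and from 11.87 to 12.22 in maternal liver of day 20. Embryo bone and embryo liver overlap each other, as do both maternal liver strata, and no array of the conceptus reached down to a maternal one. Every whole embryo array lay above every embryo liver array for 30 of 46 probe sets (28.2% of all probe sets) and above every bone array for 17 (16.8%), and every bone array lay above every maternal liver array of day 20 for 35 (23.9%). By stratum means, 40 of 46 probe sets were highest in whole embryo, 4 in embryo liver and 2 in embryo bone. The lowest stratum was maternal liver of day 12 for 27 and maternal liver of day 20 for 15. In bulk RNA of whole tissues, fewer cells of a type and less RNA per cell cannot be told apart, and RMA sets every array to a like total.

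Whole embryos of day 12 had higher ribosomal protein RNA than the maternal livers of the same day for 41 of the 46 probe sets, which cover 39 genes, and lower for 0. The background over all 15866 probe sets was 35.5% called higher and 34.3% called lower. A call is an adjusted p under 0.05 by limma, Benjamini-Hochberg over all probe sets, with treatment as a block. The median difference was 1.23 log2 units, or 2.35-fold, where that of all probe sets was -0.04. For the same 41 probe sets every whole embryo array lay above every maternal liver array, a separation found in that direction for 32.2% of all probe sets.

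Rpl3, a core protein at the catalytic centre of the large subunit, gave the smallest p. It measured 13.82 and 13.87 in RA5 and RA56 whole embryos, 13.97 in control, 13.91 in EMD50 and 13.89 in EMD150, against 12.34, 12.38, 12.36, 12.36 and 12.45 in the maternal livers in that order. The groups lie far apart and each is narrow. The fitted difference was 1.51 ± 0.09 (SE; limma adjusted p = 6.36e-12). Rpl14, measured by 1387887_at, had the widest range of stratum means among the members, 1.73. It measured 12.61 and 12.66 in RA5 and RA56 whole embryos, 12.97 in control, 12.81 in EMD50 and 12.52 in EMD150, against 11.19, 11.05, 10.83, 10.77 and 11.05 in the maternal livers in that order, a difference of 1.73 ± 0.11 (limma adjusted p = 2.03e-11). Its other probe set, 1375375_at, averaged 7 ± 0.12 in whole embryo and 7.04 ± 0.06 in maternal liver (SD, n = 5 each), so the pair disagree.

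Rpl27a, Rpl12 and Rpl11 complete the 5 smallest p-values. Rpl27a, whose loss in mouse disturbs development of the cerebellum, differed by 1.48 ± 0.09, Rpl12 by 1.48 ± 0.09 and Rpl11 by 1.40 ± 0.10. The ranges of stratum means of Rpl18, Rps15, Rps3 and Rps4y2 were the next widest after Rpl14. Rpl18 averaged 13.63 ± 0.21 in whole embryo and 11.93 ± 0.14 in maternal liver of day 12 (SD, n = 5 each). Rps3, which lines the channel where mRNA enters the ribosome, averaged 13.61 ± 0.10 in whole embryo and 11.98 ± 0.15 in maternal liver, and Rps15 13.20 ± 0.18 in whole embryo and 11.53 ± 0.12 in maternal liver.

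The 5 probe sets not called between whole embryo and maternal liver were those of Rpl30, Rpl3l and Rps27l and the dimmer ones of Rpl7 and Rpl14. All of them had a mean under 9 over the arrays. Their fitted differences ran from -0.12 for Rps27l to 0.09 for Rpl30.

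**Figure D2:**
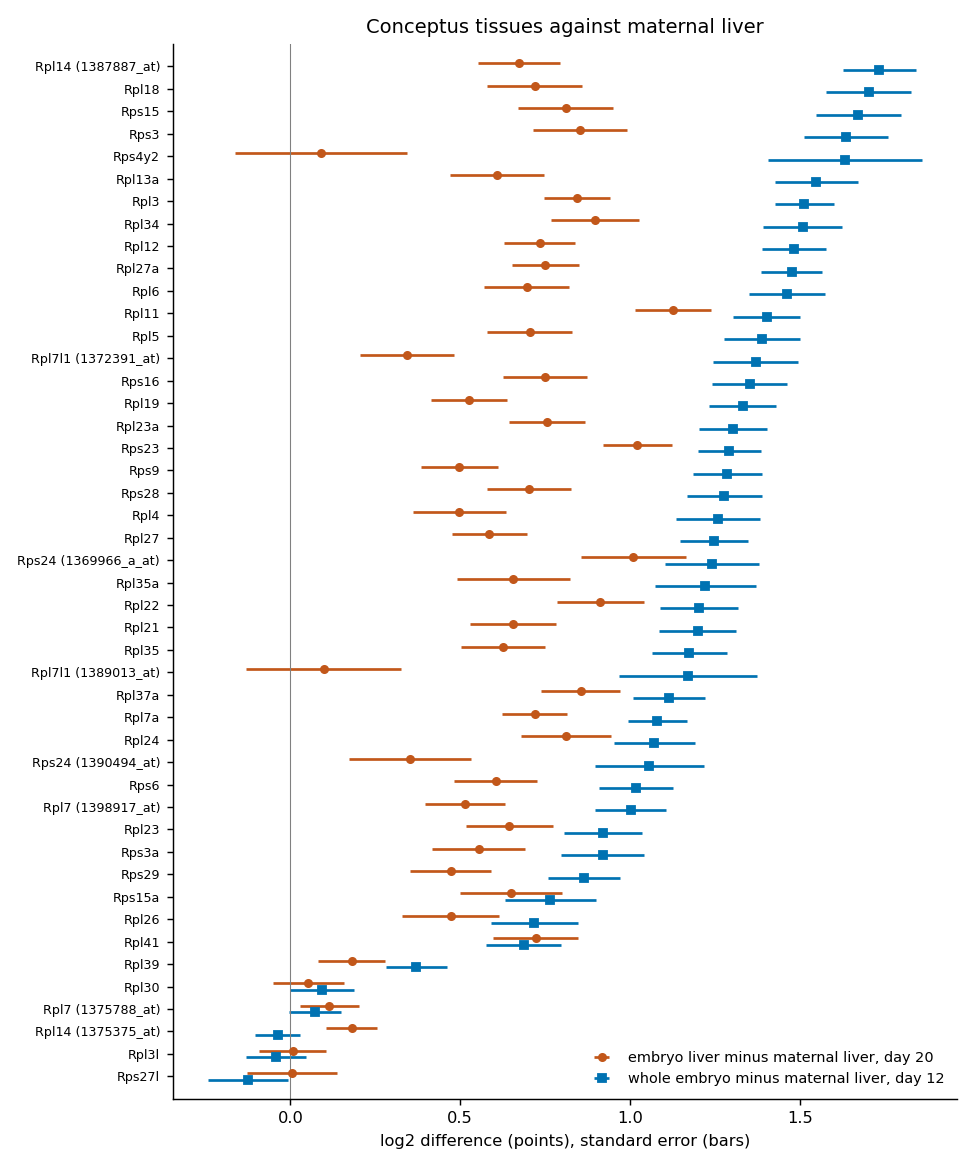
Fitted log2 difference of each ribosomal protein probe set between embryo liver and maternal liver at day 20 (circles) and between whole embryo and maternal liver at day 12 (squares), with standard errors. Most probe sets lie right of 0 in both comparisons, and the lowest rows hold the probe sets of Rps27l and Rpl3l and the dimmer ones of Rpl14 and Rpl7.

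Liver gave the comparison within 1 organ. Embryo liver of day 20 had higher levels than maternal liver of the same day for 36 probe sets of 36 genes and lower for 0, where 16.4% of all probe sets were called higher and 16.6% lower. The median difference was 0.65 log2 units, or 1.57-fold, against 0.05 for all probe sets. In 34 members every embryo liver array lay above every maternal one, as did 16.4% of all probe sets. Red cell markers moved with this difference: the mean log2 level of the 4 measured of 8 listed red cell genes was 13.4 in each embryo liver array, against 9.39 to 10 in the maternal livers of day 20. Hepatocyte markers, 7 measured of 8, averaged 13.9 to 14.1 in embryo liver and 14.2 to 14.3 in maternal liver of that day. Their part in the result was not tested.

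Rpl11, which with Rpl5 and 5S rRNA binds Mdm2 when ribosome assembly fails, stood at the head of this comparison. It measured 12.98 in the retinoic acid, 12.88 in the control, 13.08 in the EMD50 and 13.01 in the EMD150 embryo liver, against 12.16, 11.56, 11.84 and 11.89 in the maternal livers in that order. The difference was 1.13 ± 0.11 (limma adjusted p = 1.03e-07). Rps23, a protein of the decoding centre, measured 13.77, 13.77, 13.83 and 13.85 in the same order of embryo livers, against 12.90, 12.64, 12.78 and 12.81 in the maternal livers, a difference of 1.02 ± 0.10 (limma adjusted p = 1.33e-07). In both genes the groups do not overlap. Rpl3 differed by 0.84 ± 0.10, Rpl27a by 0.75 ± 0.10 and Rpl7a by 0.72 ± 0.10.

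The 10 probe sets not called between the livers include all those not called between whole embryo and maternal liver. The others were both probe sets of Rpl7l1, Rpl39, Rps4y2 and the dimmer one of Rps24. Rpl39, a very small protein at the exit tunnel, differed by 0.18 ± 0.10 between the livers, and by 0.37 between whole embryo and maternal liver, where it was called.

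Genes with known roles in development or in Diamond-Blackfan anaemia were counted apart. Of 20 such genes 11 were measured on probe sets of their own (Rps24, Rpl5, Rpl11, Rpl35a, Rpl24, Rpl27a, Rps6, Rpl22, Rpl13a, Rpl21 and Rps23). With 1 probe set each, all 11 were called higher in both embryo liver and whole embryo than in maternal liver, where 16.4% and 35.5% of all probe sets were. Rps24 differed by 1.01 between the livers with 1369966_a_at and by 0.35 with 1390494_at, which was not called. Rpl5 differed by 0.70 ± 0.12 and Rpl35a by 0.66 ± 0.17 in the same comparison. Rpl24, mutated in the mouse Belly spot and tail strain, differed by 0.81 ± 0.13.

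Paralogs and copies differed among themselves. Rpl3l replaces Rpl3 in striated muscle, and its probe set averaged 6.08 ± 0.16 in embryo bone, 6.21 ± 0.25 in embryo liver and 6.20 ± 0.21 in maternal liver of day 20 (SD, n = 4 each). These means differ by less than the spread among arrays. Skeletal muscle markers, 8 measured of 8, averaged 11.6 to 12.6 in the bone arrays and 8.35 to 8.91 in the embryo livers. Rps27l, which p53 induces in human cells, was lower in embryo bone than in embryo liver, with 7.81 in the retinoic acid, 7.39 in the control, 8 in the EMD50 and 7.28 in the EMD150 bone array, against 8.34, 8.08, 8.22 and 7.83 in the embryo livers in that order. The difference was -0.50 ± 0.13 (limma adjusted p = 0.00372), and the EMD50 bone array alone overlaps the embryo livers. Rps4y2 carries the name of a human Y-linked gene, but its Entrez identifier lies on chromosome 4 of GRCr8. It measured 9.11 and 9.43 in RA5 and RA56 whole embryos, 10.23 in control, 9.38 in EMD50 and 8.71 in EMD150, against 7.62, 8.07, 7.70, 7.39 and 7.91 in the maternal livers in that order. The whole embryos were all higher, and spread widely among themselves. Rpl7l1, a relative of Rpl7 whose yeast counterpart takes part in assembly of the large subunit, was higher in whole embryo than in maternal liver with both probe sets, by 1.37 with 1372391_at and by 1.17 with 1389013_at.

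Embryo bone and embryo liver of day 20 differed little. Of the 46 probe sets 5 were higher in bone and 2 lower, against a background of 25.6% and 29.6%, with a median of 0.10 against -0.07 for all probe sets. Those higher in bone were Rpl39 by 0.33 ± 0.10, Rps3a by 0.44 ± 0.14, Rpl27a by 0.27 ± 0.10, Rpl19 by 0.30 ± 0.11 and Rps6, whose phosphorylation reports mTOR activity, by 0.30 ± 0.12. Rps27l (above) and 1375788_at of Rpl7 were lower, with a difference of -0.24 ± 0.09 for that probe set of Rpl7. The direction rests on the scaling: when every array was given the same median and median absolute deviation, 2 members were higher and 13 lower, with a median of -0.29, and the differences of Rps3a, Rpl27a, Rpl19 and Rps6 changed sign. Without the EMD50 bone array Rps3a, Rpl19, Rps6 and 1375788_at of Rpl7 missed the threshold.

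Between the days, maternal liver did not yield a call. Of the members 0 passed, where 4.47% of all probe sets did, and 6 reached an unadjusted p under 0.05 by limma. Rpl14 (1387887_at) came nearest, at an adjusted p of 0.0626, with a day 20 minus day 12 difference of 0.39 ± 0.11. Rpl27a differed by 0.26 and Rpl12 by 0.27. Pancreatic acinar markers, 8 measured of 8, averaged 10.9 in the control and 10.2 in the EMD50 maternal liver of day 12 and 9.51 in the control of day 20, against 7.66 to 7.97 in the other maternal livers. Their part in the result was not tested.

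The genes that make and use ribosomes were read beside their products. Of all probe sets 35.5% were higher and 34.3% lower in whole embryo than in maternal liver, and 16.4% and 16.6% in embryo liver. Of 36 measured ribosome assembly factors, 34 were higher in whole embryo than in maternal liver and 0 lower, with a median of 1.5 log2 units, and 16 were higher and 0 lower in embryo liver than in maternal liver. Of 36 translation factors 35 were higher in whole embryo, and 14 were higher and 2 lower in embryo liver. Mitochondrial ribosomal proteins, which build the separate ribosome of that organelle, had 41 of 71 higher and 5 lower in whole embryo, where 35.5% and 34.3% of all probe sets were, with a median of 0.40. In embryo liver 10 were higher and 6 lower, where 16.4% and 16.6% of all were, with a median of -0.05. In embryo bone 28 of the 71 were lower than in embryo liver and 1 higher, where 29.6% and 25.6% of all were. These lists were not refitted under the scaling that turned the direction of the members in this comparison. Of cytoplasmic ribosomal proteins with other names 3 of 7 were measured, and Rplp0, Rpsa and Rack1 were higher by 0.95, 0.79 and 1.06 in embryo liver than in maternal liver. The probe sets of several symbols ran the same way, with 27 of 28 higher in whole embryo and 25 of 28 in embryo liver, and 0 lower in both.

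Regulators of ribosome production were counted in the same way. Of 17 measured genes of the mTOR and Myc group, 14 were higher and 1 lower in whole embryo than in maternal liver, where 35.5% and 34.3% of all probe sets were. In embryo liver 7 of the 17 were higher and 3 lower, where 16.4% and 16.6% of all probe sets were. Mycn, the Myc family member of early embryonic tissue, was higher by 3.73 ± 0.13 in whole embryo, and Myc, which drives transcription of ribosome genes, by 1.16 ± 0.14. Larp1, the protein that binds TOP mRNAs, was higher by 0.39 ± 0.11. The group mixes genes that promote and genes that restrain mTOR or translation, so its counts give no direction of activity. Ddit4, Eif4ebp1, Tsc2 and Tsc1, which restrain them, were also higher in whole embryo, by 1.90, 0.76, 0.57 and 0.42. Mtor, Rptor, Mlst8, Rheb, Rps6kb1 and Akt1, on the promoting side, were higher there too, by 0.52, 0.37, 0.50, 0.74, 0.31 and 0.995. In embryo liver Rheb, which activates mTOR, was lower (-0.38), and Myc was higher by 0.92. Of 8 measured genes of the p53 and nucleolar stress group, 2 were higher and 4 lower in whole embryo. Of all probe sets 35.5% and 34.3% were, so these few genes are not read as a result. Of 8 listed snoRNA host genes, which carry the guide RNAs of ribosomal RNA in their introns, 2 were measured. Both were higher in whole embryo and in embryo liver than in maternal liver.

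Retinoic acid was set against control over all 5 strata, with the stratum as a block. Members lay on both sides of 0, 24 of 46 above it, with a median difference of 0.01 against -0.02 for all probe sets. By side, 21 of 46 were positive in the conceptus, with a median of -0.07, and 32 of 46 in maternal liver, with a median of 0.15, where 44.9% and 45.2% of all probe sets were positive. An unadjusted p under 0.05 by limma was reached by 16 members in the conceptus, against 12.2% of all probe sets, and by 11 in maternal liver, against 3.15%. The test of the difference between the sides is given further on. Over all 5 strata a small group of members was called: 5 were higher, where 1.78% of all probe sets were, and 1 was lower, where 0.0567% were. An unadjusted p under 0.05 was reached over all 5 strata by 17 members (37.0%) and by 12.5% of all probe sets. The 5 higher members are Rps15a, Rpl35a, Rpl39, Rpl23 and Rpl26, and the lower is 1375788_at of Rpl7. None of those 5 was called in the conceptus or in maternal liver alone. In the conceptus alone 1390494_at of Rps24 was called higher, with 0.70 ± 0.17 (limma adjusted p = 0.0436). There 1375788_at of Rpl7 was called lower, with -0.42 ± 0.10 (limma adjusted p = 0.0426). Of all 15866 probe sets 287 were called higher and 15 lower in the conceptus. In maternal liver alone 0 members were called.

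Rps15a, a protein of the small subunit body, measured 13.24 and 13.19 in RA5 and RA56 whole embryo, against 12.82 in control. The retinoic acid and control arrays gave 12.99 and 12.18 in embryo liver, 13.07 and 12.39 in embryo bone and 12.55 and 11.53 in maternal liver of day 20. In maternal liver of day 12 RA5 and RA56 gave 12.26 and 12.25, against 11.95 in control. Retinoic acid was above control in 5 of 5 strata, and the fitted difference was 0.60 ± 0.13 (limma adjusted p = 0.0259).

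Rpl35a, one of the genes lost in Diamond-Blackfan anaemia, measured 12.57 and 12.97 in RA5 and RA56 whole embryo, against 12.31 in control. The retinoic acid and control arrays gave 12.25 and 11.24 in embryo liver, 12.17 and 11.65 in embryo bone and 11.26 and 10.51 in maternal liver of day 20. In maternal liver of day 12 RA5 and RA56 gave 11.35 and 11.34, against 10.92 in control. It was higher in 5 of 5 strata too, by 0.63 ± 0.14 (limma adjusted p = 0.0306). Rpl39 was higher by 0.36 ± 0.08, Rpl23 by 0.44 ± 0.11 and Rpl26, which in human cells promotes p53 translation after DNA damage, by 0.49 ± 0.12, each in 5 of 5 strata (limma adjusted p = 0.0347, 0.0407 and 0.041). Members that were not called, among them Rpl11, Rpl22, Rpl24, Rps3a and Rps6, were also above control in 5 of 5 strata. The share of all probe sets with that sign in every stratum was not counted.

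The lower probe set, 1375788_at of Rpl7, measured 7.70 and 7.77 in RA5 and RA56 whole embryo, against 8.12 in control, and 7.56 and 7.82 in the corresponding maternal livers, against 7.95. The retinoic acid and control arrays gave 7.95 and 8.21 in embryo liver, 7.52 and 8.13 in embryo bone and 7.80 and 8.13 in maternal liver of day 20. It was lower in 5 of 5 strata, with a difference of -0.37 ± 0.07 (limma adjusted p = 0.0258). The brighter probe set of the same gene was higher in 5 of 5 strata and was not called, so the probe sets of Rpl7 disagree.

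**Figure D3:**
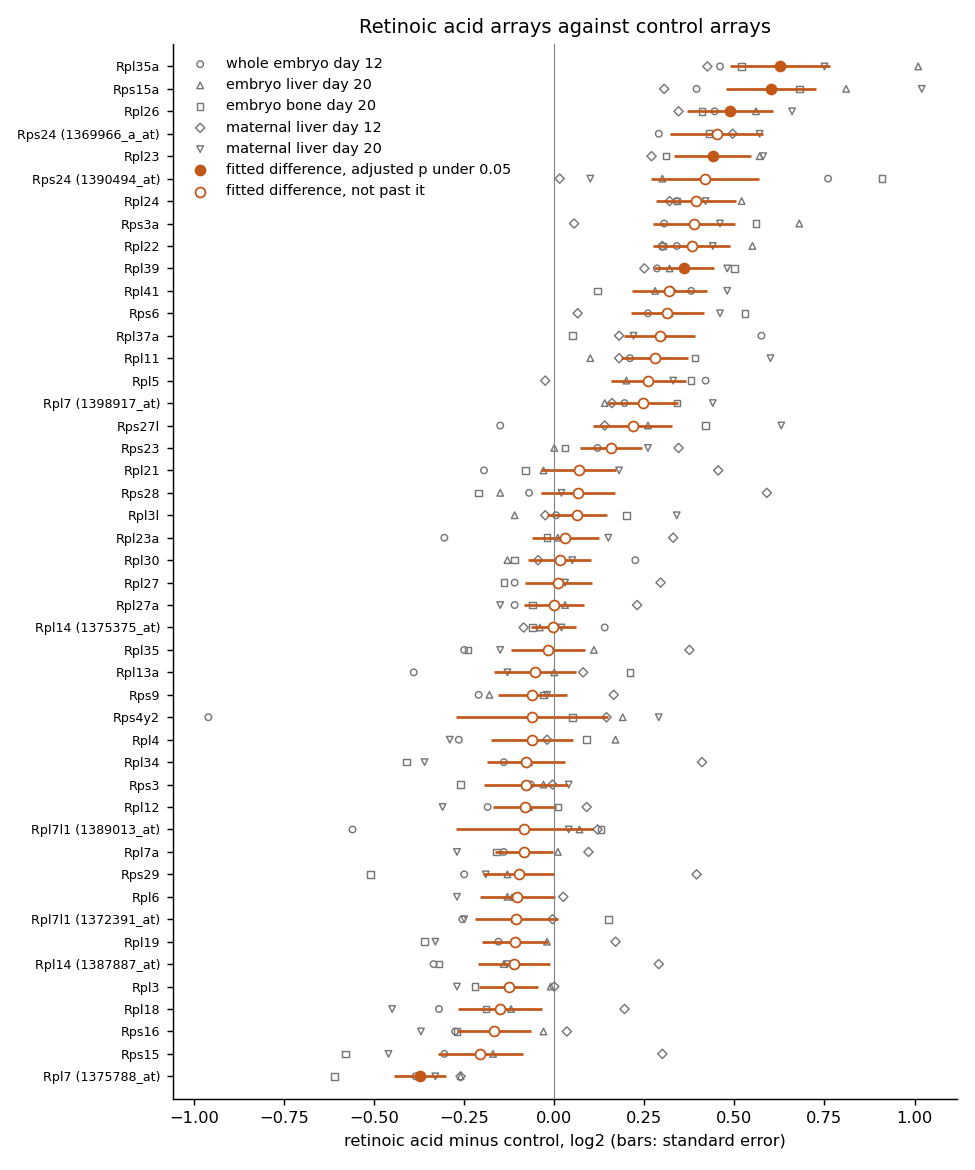
Retinoic acid minus control for each ribosomal protein probe set: grey symbols give the difference in each of the 5 strata (the mean of RA5 and RA56 at day 12), filled circles the fitted differences past the threshold, open circles the others, and bars their standard errors. Rps15a, Rpl35a, Rpl39, Rpl26 and Rpl23 lie right of 0 in every stratum, and so do members that were not called, among them Rpl22, Rpl24, Rps3a and Rps6. Many other members lie on both sides.

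The count of 6 became 0 when any of 8 arrays was left out, namely the control or the RA56 array of whole embryo, embryo liver, embryo bone or maternal liver of day 20, and it became 11 without the EMD50 bone array. Marker lists also moved with the contrast. Skeletal muscle markers averaged 10.1 in the RA56 maternal liver of day 20, against 7.67 to 7.89 in the other 3 of that day, and hepatocyte markers averaged 9.74 and 9.72 in RA5 and RA56 whole embryo, against 8.34 to 8.65 in the others. Without the RA56 arrays of whole embryo, embryo bone and maternal liver of day 20 together, 0 members passed; Rpl35a then differed by 0.63 and Rps15a by 0.51. Beyond those values, the part of these cells in the result was not tested.

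The lists were counted for retinoic acid in the same way, against the 1.78% of all probe sets called higher. Translation factors had 2 of 36 higher, Eif4a2 by 0.68 and the cap-binding protein Eif4e by 0.76. Assembly factors had 1 of 36, Nop10, a part of the particle that makes pseudouridine in ribosomal RNA, by 0.76. Mitochondrial ribosomal proteins had 6 of 71 higher. The snoRNA host gene Gas5, itself a TOP RNA, was higher by 0.82 ± 0.18 (limma adjusted p = 0.0292), while Snhg8 differed by -0.18 and was not called. No gene of these lists, nor of the mTOR and Myc group, was called lower. Of the probe sets with several symbols 2 of 28 were higher.

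EMD 82571 gave no call in the family at either dose. EMD150 minus control and EMD50 minus control each called 0 members by limma, and 0% of all probe sets. At an unadjusted p under 0.05 there were 6 members for EMD150, where 18.4% of all probe sets reached it, and 5 for EMD50, where 1.59% did. For EMD150 the smallest p-values were those of Rps9 with a difference of -0.28 ± 0.10, 1375375_at of Rpl14 with 0.16 ± 0.07 and Rpl26 with 0.30 ± 0.13. For EMD50 they were those of Rpl22 with 0.28 ± 0.11, Rps27l with 0.27 ± 0.12 and Rpl11 with 0.23 ± 0.10. In these genes the EMD50 bone array, whose control probe sets stand apart (below), gave the largest difference from control, 0.69, 0.61 and 0.45. In the other strata Rpl22 ran from 0.003 to 0.37, Rps27l from -0.15 to 0.43 and Rpl11 from 0.05 to 0.28. EMD150 minus EMD50 also called 0 members and 0% of all probe sets, with 2 members under an unadjusted p of 0.05. Those were Rps9 with -0.26 ± 0.10 and Rps27l with -0.26 ± 0.12, followed by Rpl3l with 0.17 ± 0.09.

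Set against retinoic acid over the same strata, EMD150 had 1 member higher, where 6.49% of all probe sets were, and 3 lower, where 7.89% were. The higher one was 1375788_at of Rpl7, by 0.36 ± 0.07 (limma adjusted p = 0.00859). Those lower were Rps15a with -0.47 ± 0.13, Rps24 (1369966_a_at) with -0.45 ± 0.13 and Rpl35a with -0.45 ± 0.14. This comparison shares the retinoic acid arrays with the one above. With median and deviation scaling 7 members were higher and 1 lower, and with quantile normalization 1 was higher and 1 lower, so no direction of the family is given.

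Whether a treatment acted differently in the conceptus and in the dam was tested as an interaction. For EMD 82571, taken as the mean of both doses, 0 members and 0% of all probe sets were called, and 0 members had an unadjusted p under 0.05. The 3 members with the smallest p were Rps28 with -0.35 ± 0.18, Rpl23a with -0.28 ± 0.17 and 1375375_at of Rpl14 with 0.19 ± 0.12, conceptus minus maternal. For retinoic acid 0 members and 0% of all probe sets were called as well. The 3 with an unadjusted p under 0.05 were 1390494_at of Rps24 with 0.66 ± 0.26, Rps28 with -0.48 ± 0.20 and Rps29 with -0.44 ± 0.19.

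Single arrays were also set against the control of their stratum. In the EMD150 maternal liver of day 12, 45 of 46 probe sets lay above control (97.8%), with a median of 0.16, and 54.4% of all probe sets did. RA5 and RA56 maternal livers of that day had 36 and 38 above control, with medians of 0.21 and 0.16, and the EMD50 array had 30, with 0.05. Of all probe sets 51.6%, 51.5% and 53.1% lay above control in RA5, RA56 and EMD50. These arrays share 1 control, which held the highest acinar markers (10.9), and the EMD50 array had the next highest (10.2), while RA5, RA56 and EMD150 had 7.66, 7.75 and 7.71. The part of those cells in the result was not tested, and with 1 control there is no replicate check. At day 20 the EMD150 maternal liver had 19 of 46 above control, with a median of -0.14, the EMD50 one 37, with 0.18, and the RA56 one 28, with 0.05, so EMD150 lay on opposite sides of control at the 2 days. Of all probe sets 51.5%, 50.6% and 41.6% lay above control in that order. In whole embryo 14 of 46 lay above control in EMD150 and 16 in EMD50, with medians of -0.11 and -0.06, where 50.9% and 49.1% of all probe sets did. The control whole embryo array had the widest spread of all arrays, with an SD of 1.832, against 1.675 in EMD150 and 1.699 in EMD50. Other bright probe sets were not counted apart here, so a shift of all bright probe sets and one of the members cannot be told apart.

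The EMD50 bone array stands apart in its control probe sets. Its GAPDH 3′ minus 5′ difference was 2.72, while the other 21 arrays ran from 0.57 to 0.86. The GAPDH 5′ probe set read 9.61 in EMD50 bone, against 12.73 to 12.92 in the other 3 bone arrays, and the 3′ one 12.33 against 13.47 to 13.61. For beta-actin the difference was 0.98 in EMD50 bone, against 0.35 to 0.66 in the other bone arrays. Hexokinase went the other way, with a smaller difference in EMD50 bone, 0.46 against 0.96 to 1.17. A large 3′ minus 5′ difference is the usual sign on such arrays of RNA or cDNA that is short at the 5′ side. Hepatocyte markers also split the bone arrays, with 10.3 in the retinoic acid, 10.4 in the control, 8.21 in the EMD50 and 8.56 in the EMD150 array.

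More ribosomal protein probe sets lay above the other bone arrays than below them in that array. Against the range of the other 3 bone arrays, 26 of 46 lay above and 6 below, where 22.8% of all probe sets lay above and 28.5% below. The median difference from the mean of the other 3 was 0.19, against -0.01 for all probe sets and 0.14 for the 268 probe sets with a mean of 12 or more in bone. Past 1.5-fold, 6 members were higher, where 6.18% of all probe sets were, and 1 was lower, where 6% were. Among the 268 bright probe sets, from which members were not taken out, those shares were 11.6% and 8.96%. With 1 array there is no test. Set against the EMD150 bone array alone the median was 0.45. Against the control bone array alone it was 0.09, with 30 of 46 above control, where 49.6% of all probe sets were. The EMD150 bone array itself had 17 of 46 below its other 3, where 24% of all probe sets were. Its median difference from their mean was -0.18, against -0.16 for the 268 bright probe sets.

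**Figure D4:**
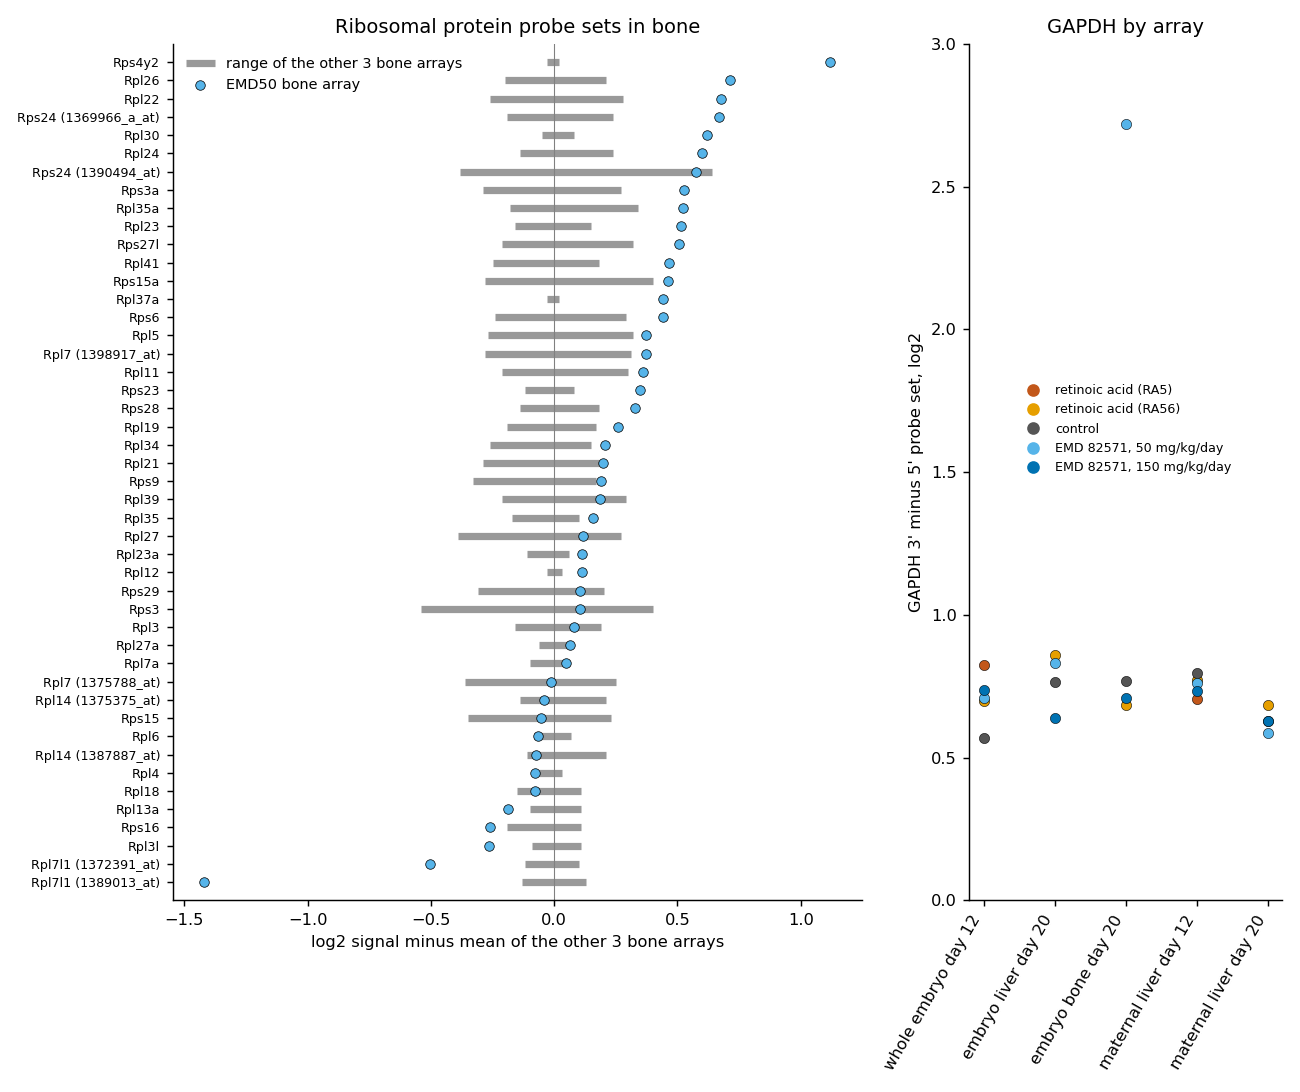
Left, each ribosomal protein probe set in the EMD50 bone array (blue points) against the range of the other 3 bone arrays (grey bars), in log2 units from the mean of those 3. Right, the GAPDH 3′ minus 5′ difference of all 22 arrays by stratum, where the EMD50 bone array has 2.72 and all others lie under 0.86.

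Rps4y2 moved most among the higher members, with 8.70 in EMD50 bone, against 7.60 in the retinoic acid, 7.55 in the control and 7.59 in the EMD150 array, 1.12 above their mean. Rpl26 measured 13.79 in EMD50 bone, against 13.29, 12.88 and 13.06 in the same order, a difference of 0.71. Rpl22, a protein that also binds viral and cellular RNA outside the ribosome, was 0.68 higher, Rps24 (1369966_a_at) 0.67, Rpl30 0.62 and Rpl24 0.60. In each of these the EMD50 value lay above all 3 others. Rpl30 is dim, with 7.04 in EMD50 bone against 6.37 to 6.50 in the others, where the median of all probe sets in EMD50 bone was 8.15. At the other end, 1389013_at of Rpl7l1 measured 8.71 in EMD50 bone, against 10.26, 10.13 and 10 in the same order, a difference of -1.42, and 1372391_at of the same gene 9.01 against 9.54, 9.39 and 9.61, a difference of -0.50. Rpl3l, Rps16 and Rpl13a followed with -0.27, -0.26 and -0.19. The member that passed the 1.5-fold bound by least was Rpl24 with 0.60, and the nearest that did not reach it was 1390494_at of Rps24 with 0.57, which did not clear the range of the other bone arrays.

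Other lists in the EMD50 bone array lay on both sides of the family. Past 1.5-fold, 6.18% of all probe sets were higher and 6% lower. The mTOR and Myc group had a median of 0.28, with 4 of 17 past 1.5-fold higher and 1 lower. Mitochondrial ribosomal proteins had a median of 0.17, with 10 of 71 past 1.5-fold higher and 0 lower. Translation factors had a median of -0.04, with 6 higher and 5 lower of 36, and assembly factors -0.04, with 3 and 3 of 36.

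The order of the members in the EMD50 bone array resembled their order under retinoic acid in arrays that share no sample with it. This was chosen after the values were seen and is a description only. On one side stood retinoic acid minus control, averaged over the 4 strata outside bone, and on the other EMD50 bone minus the mean of control and EMD150 bone. Over the 46 probe sets Spearman's rank correlation was 0.806 and Pearson's r 0.709. Over the 37 with a mean of 10 or more the rank correlation was 0.931, where it was 0.286 over all 15866 probe sets and 0.509 over the 199 with a mean of 12 or more. Pearson's r was 0.804, 0.346 and 0.384 in that order. Members were not taken out of those 199. Between the retinoic acid strata themselves, taken in 6 pairs, the rank correlation ran from 0.123 to 0.759. The points are probe sets that share arrays, and they are not independent replicates.

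Rpl35a, Rps15a, Rpl26, Rpl23, Rps24 (1369966_a_at), Rpl22 and Rpl24 lay at the upper end of both. Rpl35a differed by 0.659 under retinoic acid outside bone and by 0.695 in EMD50 bone, and Rps15a by 0.635 and 0.661. The other 5 lay between 0.402 and 0.503 under retinoic acid and between 0.593 and 0.821 in EMD50 bone. At the lower end 1375788_at of Rpl7 had -0.306 and -0.191, Rpl18 -0.175 and -0.154, Rps16 -0.159 and -0.352 and Rps15 -0.158 and -0.229. Rps4y2 and 1389013_at of Rpl7l1 stood apart. Rps4y2 had -0.0891 under retinoic acid and 1.13 in EMD50 bone, and that probe set of Rpl7l1 -0.0838 and -1.35. GAPDH 3′ minus 5′ lay between 0.683 and 0.859 in the retinoic acid arrays outside bone, and between 0.568 and 0.832 in the control and EMD arrays other than EMD50 bone.

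**Figure D5:**
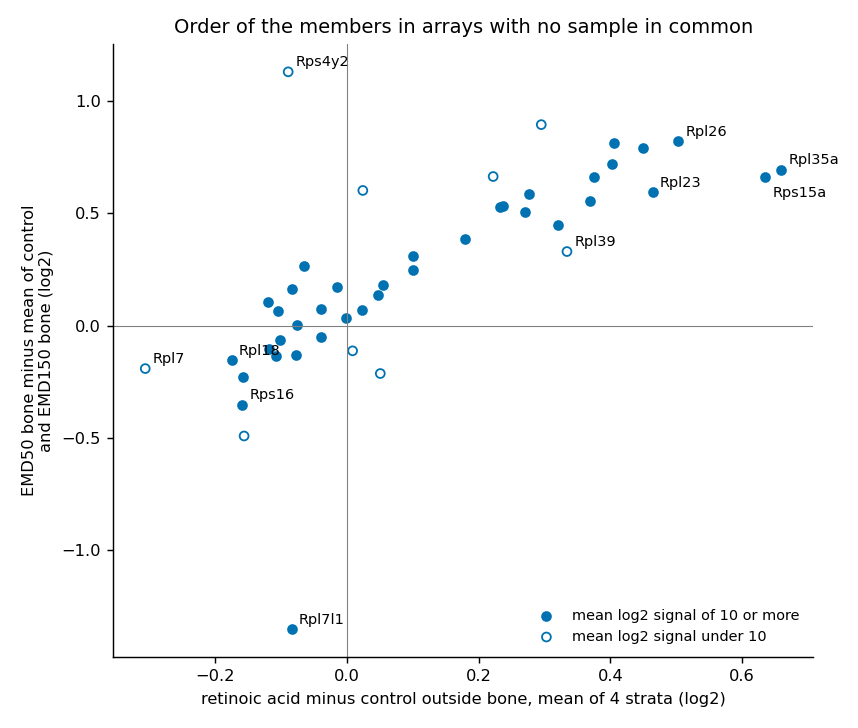
Each ribosomal protein probe set by retinoic acid minus control outside bone (mean of 4 strata, horizontal) and by EMD50 bone minus the mean of control and EMD150 bone (vertical), both in log2 units. Filled points have a mean signal of 10 or more and climb from lower left to upper right, with 1 probe set of Rpl7l1 far below them; Rps4y2, an open point, lies far above.

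Each treated array outside bone, taken minus the control of its own stratum, was set against the EMD50 bone difference over the same 37 probe sets. The rank correlation was 0.838 and 0.905 for RA5 and RA56 whole embryo, 0.712 for RA56 embryo liver and 0.853 for RA56 maternal liver of day 20. It was 0.276 and 0.373 for RA5 and RA56 maternal liver of day 12. EMD150 gave 0.618 in whole embryo, 0.688 in embryo liver, 0.749 in maternal liver of day 20 and 0.127 in maternal liver of day 12. EMD50 outside bone gave 0.177 to 0.393. Over the 199 probe sets of any gene with a mean of 12 or more, the same 14 values ran from 0.0333 to 0.511. They were also all above 0, so that sign is not read as a result about the members. For the RA5, EMD50 and EMD150 maternal livers of day 12 these values, 0.336, 0.235 and 0.194, exceeded those of the members. Arrays of 1 stratum share their control.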

How the data were processed

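Total RNA was isolated on RNeasy columns, primed with oligo dT and labelled as biotinylated cRNA, per the labels' protocols. The authors deposited log2 probe set values from RMA, per the submitters' processing notes; the sources used here give neither its version nor whether all arrays were processed together. RMA scales arrays to 1 another, so differences are relative. The table has 15923 rows, of which 57 array controls were left out, and 0 further sample columns were unused. Symbols came from the platform's probe table, and 40 of 42 member identifiers were found in the RefSeq gene table (GRCr8).

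Differences were fitted to the 22 arrays with limma 3.58.1 in R 4.3.3, with terms for stratum and treatment (14 residual degrees of freedom) and an intensity trend, two-sided. The interaction model left 11. The Benjamini-Hochberg adjustment ran over all 15866 probe sets, without a filter, in 11 comparisons. Most groups hold 1 array, so strata served as repeats of a treatment and treatments as repeats of a stratum. The number of arrays limits the precision. The scripts were tested on simulated data.

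Members and gene lists were chosen with earlier results of these data known. Named members were those with the smallest p per direction (up to 5 called, or 3 where fewer were called), those with the widest tissue range, the 5 largest differences each way in the EMD50 bone array, paralogs, and genes with disease or developmental roles. Alternatives were quantile normalization, scaling by median and median absolute deviation, a minimum mean of 8, no intensity trend, a term for RA5, and leaving out arrays.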

Additional observations from a re-analysis of the deposited data

How the results depend on the processing

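The counts of members called between embryo liver and maternal liver (36) and between whole embryo and maternal liver (41) stayed within 1.5 times under every alternative run, at 36 to 37 and 41 to 41 with single arrays left out. The counts of 0 for EMD150 minus control, EMD50 minus control, EMD150 minus EMD50 and both interactions stayed 0 throughout, with single arrays left out too (0 to 0). Retinoic acid minus control, 6 in the report, gave 3 with scaling by median and median absolute deviation, 11 without the EMD50 bone array and 0 without 3 retinoic acid arrays, and 0 to 11 with single arrays left out. EMD150 minus retinoic acid, 4 in the report, gave 2 with quantile normalization, 8 with median and deviation scaling, 7 without the EMD50 bone array and 0 without 3 retinoic acid arrays, and 1 to 9 with single arrays left out; it gave 1 without the EMD150 array of bone, maternal liver of day 20 or whole embryo or the RA56 array of either liver of day 20, 2 without the EMD150 embryo liver or the RA56 whole embryo, and 9 without the RA5 whole embryo. Embryo bone minus embryo liver, 7 in the report, gave 13 with quantile normalization and 15 with median and deviation scaling, and 2 to 8 with single arrays left out, 2 without the EMD50 and 4 without the control embryo liver. Maternal liver day 20 minus day 12, 0 in the report, gave 2 with quantile normalization, 1 with a minimum mean of 8 and 1 without the intensity trend, and 0 to 1 with single arrays left out, 1 without the EMD150 array of either day or the RA5 array. With median and deviation scaling the bone minus embryo liver differences reversed to -0.0048 for Rps3a, -0.25 for Rpl27a, -0.15 for Rpl19 and -0.19 for Rps6. The median of the EMD50 bone array was 0.446 against the EMD150 bone array alone, 0.091 against the control bone array alone and 0.193 against all 3. The replicate block, with RA5 as a term, left every count within 1.5 times, and under it Rpl23 (adjusted p = 0.0554) and Rpl26 (adjusted p = 0.0635) missed the threshold for retinoic acid minus control by limma. The causes of these changes were not tested. No measure of signal over background was used here, which limits what the 8 probe sets with a mean under 9 can show.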
